A study of Rattus norvegicus with 6 samples.

Results

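The genes described here are the ephrins and their Eph receptors, the Slits and Robos, the netrins and their receptors, the semaphorins of classes 4 to 7, and the A, B and C plexins of the rat sciatic nerve. They were chosen by symbol, as every gene of these families in the deposited mRNA table plus Dcc and Neo1, which gave 61 of 30957 genes. The rule uses symbols and no measured value, but the families were picked with earlier results of these data known. Total RNA was sequenced from 6 Sprague-Dawley rats of 1 month of age, 2 in each of 3 groups. The control rats are normal controls by the sample labels, while the methods describe the same operation without the clamp. The D4 and D7 rats were sampled 4 and 7 days after the left sciatic nerve was clamped at its middle. Each rat gave 1 library, called a or b, and nothing in the labels links rats of the same letter. The groups model a crush of the whole nerve, and the libraries hold RNA of every cell in it. In such RNA, fewer cells of a type and less RNA per cell cannot be told apart.

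Guidance molecules steer growing axons and migrating cells. Ephrins are membrane-bound ligands that signal through Eph receptor tyrosine kinases on touching cells. Slits repel through Robo receptors, netrins act through Dcc, neogenin and the Unc5 receptors, and semaphorins act mainly through plexins, which regulate small GTPases and through them the cytoskeleton. In peripheral nerve these systems are known for the sorting of Schwann cells, the path of regrowing axons across an injury, and the growth of blood vessels.

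Of the 61 genes, 53 passed the filter on low counts and were tested. The other 8, Dcc, Efna3, Epha6, Epha8, Epha10, Slit1, Unc5a and Unc5d, were at or below 0.579 FPKM (fragments per kilobase of gene, scaled to the size of the library) in every library, and Epha8 had 0 counts throughout. A gene is named a differentially expressed gene (DEG) where the adjusted p of edgeR's quasi-likelihood test was under 0.05 over all 15195 genes tested and the difference was at least 2-fold. In control vs D4, 22 of the 53 were DEGs, 8 upregulated and 14 downregulated, which is 41.5% beside 21.9% of all genes tested (11.2% upregulated and 10.7% downregulated). In control vs D7, 19 were DEGs, 6 upregulated and 13 downregulated, which is 35.8% beside 18.8% of all genes (9.83% and 9.02%). The upregulated genes of both days include Ntn5, which had 0 counts in both controls and passed the filter through the injured groups alone. From D4 to D7, 4 genes were upregulated and none was downregulated in edgeR's fit of all 6 libraries. That is 7.55% beside 2.18% of all genes (1.68% upregulated and 0.494% downregulated). Ntn1 was also called lower by DESeq2 and by edgeR in the fit of the 2 compared groups alone. By the adjusted p alone, 31, 32 and 5 of the 53 passed in the 3 comparisons, beside 44.2%, 37.5% and 4.67% of all genes. The median log2 fold change of the 53 was -0.27 at D4 and -0.12 at D7, beside -0.04 and 0.01 over all genes tested. Both comparisons share the control libraries. With no TMM factor, which raised the median of all genes to 0.25 at D4 and 0.31 at D7, the D4 DEGs split into 12 upregulated and 11 downregulated, and those of D7 into 12 and 8. The calls of Efnb2, Slit2 and Unc5c at D4 and of Efnb2, Neo1, Ntn1, Plxna2 and Plxnb1 at D7, all lower, were lost with no TMM factor. No DEG changed direction under any alternative that was run.

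The promoters of 5 genes are printed, those of the 3 receptors with the largest changes between days for which a sequence was at hand (Ephb1, Ephb6 and Plxnb3), of Sema6d, which showed a smaller change of the same shape, and of Plxnc1, the plexin with the largest rise. Each runs from 250 bases before to 50 bases after the annotated start (RefSeq, GRCr8), 5′ to 3′ on the gene's strand, and capitals mark matches to 4 motifs searched on both strands. The motifs were ACAAAG (SOX), TGANTCA (AP-1), GTGGGCG (EGR) and GGAATG (TEAD), named for factor families active in Schwann cells. The windows are chr8:111823710-111824009 on the minus strand for Ephb1, chr4:71458382-71458681 on the plus strand for Ephb6, chrX:156646624-156646923 on the plus strand for Plxnb3, chr3:132337106-132337405 on the plus strand for Sema6d and chr7:31430556-31430855 on the minus strand for Plxnc1.
Ephb1: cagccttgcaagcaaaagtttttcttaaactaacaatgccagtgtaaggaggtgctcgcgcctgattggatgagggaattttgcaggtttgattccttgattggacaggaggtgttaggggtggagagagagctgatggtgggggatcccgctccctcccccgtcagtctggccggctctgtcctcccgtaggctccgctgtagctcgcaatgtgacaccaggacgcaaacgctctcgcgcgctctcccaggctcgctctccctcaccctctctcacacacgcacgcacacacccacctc
Ephb6: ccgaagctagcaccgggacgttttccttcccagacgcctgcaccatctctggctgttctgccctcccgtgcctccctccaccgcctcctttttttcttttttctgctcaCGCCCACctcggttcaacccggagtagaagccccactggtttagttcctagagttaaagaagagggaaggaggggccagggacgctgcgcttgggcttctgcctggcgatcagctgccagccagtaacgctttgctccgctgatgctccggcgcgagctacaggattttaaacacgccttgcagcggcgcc
Plxnb3: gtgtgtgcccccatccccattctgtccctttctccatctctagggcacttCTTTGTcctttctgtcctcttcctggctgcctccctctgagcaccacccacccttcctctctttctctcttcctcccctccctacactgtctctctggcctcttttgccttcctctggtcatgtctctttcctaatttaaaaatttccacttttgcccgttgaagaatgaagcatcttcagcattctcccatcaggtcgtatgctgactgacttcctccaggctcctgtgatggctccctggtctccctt
Sema6d: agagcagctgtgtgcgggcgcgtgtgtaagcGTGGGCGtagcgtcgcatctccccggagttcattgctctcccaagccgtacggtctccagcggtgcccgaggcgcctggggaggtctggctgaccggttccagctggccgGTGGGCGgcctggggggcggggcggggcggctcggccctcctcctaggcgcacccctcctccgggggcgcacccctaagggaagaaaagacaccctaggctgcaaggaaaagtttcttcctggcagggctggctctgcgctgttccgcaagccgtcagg
Plxnc1: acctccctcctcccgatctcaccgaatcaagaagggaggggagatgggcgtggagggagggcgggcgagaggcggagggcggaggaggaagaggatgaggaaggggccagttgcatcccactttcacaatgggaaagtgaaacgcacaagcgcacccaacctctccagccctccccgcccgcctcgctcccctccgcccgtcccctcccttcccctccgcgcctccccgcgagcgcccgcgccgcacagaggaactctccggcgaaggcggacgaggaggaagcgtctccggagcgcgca

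Ephb6 held 1 EGR match, Sema6d 2 EGR matches and Plxnb3 1 SOX match, while the windows of Ephb1 and Plxnc1 held none of these letters. A promoter was matched by symbol for 50 of the 61 genes. Among these, 10 held the EGR motif (20%, beside 7.12% of 33469 promoters of the same length), 6 the SOX motif (12% beside 18.8%), 6 the TEAD motif (12% beside 14.2%) and 1 the AP-1 motif (2% beside 7.33%). The wider set was not reduced to 1 window per symbol, as the guidance genes were, and was not matched for base content. Of the 10 with the EGR motif, Ephb3, Ephb6, Sema6d and Plxna2 were DEGs on at least 1 day. Efnb1, Sema4b, Sema4c and Plxna3 were not, and Efna3 and Unc5a were not tested. A match is a run of letters and not a site.

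In control nerve the most abundant of these RNAs per unit of length was Sema5a, with a mean of 210.1 FPKM, followed by Slit3 with 53.1, Sema4c with 46.1, Sema4g with 35.3 and Plxnb1 with 33.5. At D4 the order was led by Plxnb2 with a mean of 67.8 FPKM, Sema4c with 51.5, Sema7a with 49.7 and Plxna1 with 47.6. At D7 it was led by Plxnb3 with 59.2, Sema7a with 56.1, Plxnb2 with 53.7 and Ntng2 with 49.7. Sema5a, first before the crush, was not among the leading 5 on either day. The deposited FPKM carry no TMM factor, so these levels were compared between genes and not tested between groups.

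**Figure D1:**
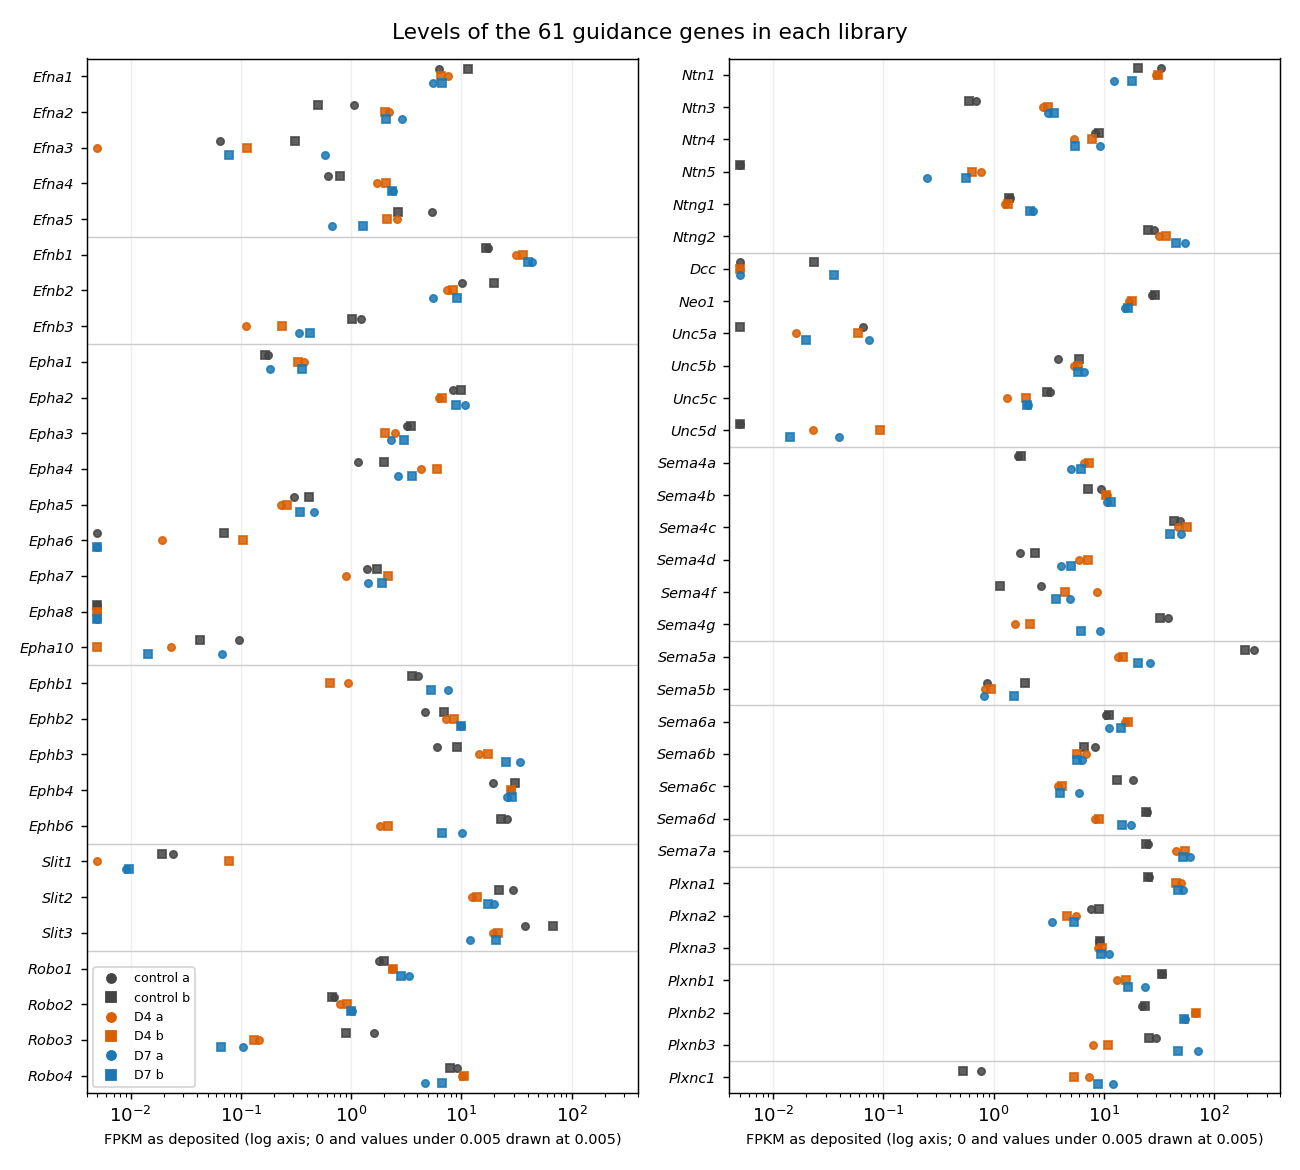
Level of each of the 61 guidance genes in each library, in FPKM on a log axis, with families separated by grey lines, circles for library a and squares for library b. Sema5a stands highest in the 2 control libraries, at 228 and 192 FPKM, and lies between 13.4 and 26.0 FPKM in the 4 injured libraries.

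Myelinating Schwann cell markers, macrophage markers and cell cycle genes changed in these libraries, and their values belong beside the results that follow. The summed FPKM carry no TMM factor and were not tested between groups. These factors were 0.863 and 0.885 in the controls and 1.064 to 1.080 after the crush. Beside scaled counts, the sums therefore stand lower in the controls and higher in the injured libraries. The summed FPKM of 7 myelin genes was 7180.3 to 10542 in the controls, 988 to 1023 at D4 and 1909.5 to 2811 at D7, with 6 of 7 downregulated at D4 and 4 of 7 upregulated from D4 to D7. That of 8 macrophage genes was 208.4 to 210.0, then 1134 to 1164 and 892 to 971, with 8 of 8 upregulated at D4 and 7 of 8 at D7. That of 7 endothelial genes was 191 to 255, then 118 to 130.1 and 80.8 to 116, with 4 of 7 downregulated at D4 and 7 of 7 at D7. The 4 cell cycle genes summed to 4.69 to 9.62, then 163 to 184 and 104 to 112 FPKM, with 4 of 4 upregulated on both days. The 10 immature or repair Schwann cell genes summed to 1216 to 1414, then 1811 to 1898 and 1363 to 1609 FPKM, with 5 upregulated and 1 downregulated at D4, 5 upregulated at D7, and Gdnf and Shh downregulated from D4 to D7. The 7 lymphocyte genes summed to 15.2 to 16.4, then 55.6 to 62.5 and 66.7 to 66.9 FPKM, with 4 of 6 tested upregulated at D4 and 6 of 6 at D7. Of 4 perineurial genes tested, 2 were downregulated and 1 upregulated on each day, and of 6 fibroblast genes 0 were DEGs at D4 and 1 was downregulated at D7. D7 a stood apart in 5 adipocyte genes, whose sum was 402 to 468 FPKM in the controls, 71.6 to 141 at D4, 4.33 in D7 a and 208 in D7 b. Control b stood apart from control a in 6 pericyte and smooth muscle genes, whose sum was 316 FPKM in control a and 1634 in control b. Of all these genes, Lypd2 (perineurial) was at 0 in every group, Cd3d in the controls, and Ms4a1 at D4 and D7. The part of any of these cells in the results was not tested.

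Among the A-type ephrins, which are anchored to the membrane by a lipid, Efna4 rose and Efna5 fell. Efna4 stood at 1.75 and 2.23 CPM in the controls, 3.98 and 4.84 at D4 and 5.59 and 5.39 at D7 (CPM, counts scaled to library size with TMM factors). It was upregulated on both days, 2.22-fold at D4 (log2 fold change 1.15, SE 0.25, adjusted p = 0.0127) and 2.76-fold at D7 (log2 fold change 1.46, SE 0.25, adjusted p = 0.00671), with every injured library above both controls. Without control a the D4 value was 0.98, adjusted p = 0.0487, and without D4 b it was 1.002, adjusted p = 0.0829. Efna5 stood at 4.17 and 1.99 CPM in the controls, 1.64 and 1.33 at D4 and 0.423 and 0.792 at D7. It was downregulated at D7 (log2 fold change -2.34, SE 0.52, adjusted p = 0.0166) and did not pass at D4 (log2 fold change -1.06, SE 0.47, adjusted p = 0.118). Its D7 call was lost without control a (-1.71, adjusted p = 0.0659) and without D7 a (-1.93, adjusted p = 0.086). Efna1, the A-type ephrin with the highest control level, ranged from 5.56 to 11.5 FPKM over the 6 libraries and was not a DEG on either day. Efna2 stood at 1.44 and 0.663 CPM in the controls, 2.46 and 2.22 at D4 and 3.19 and 2.28 at D7. Its D7 rise fell just short of the adjusted p (log2 fold change 1.36, SE 0.43, adjusted p = 0.0522). It was called at D7 with DESeq2 and with upper-quartile factors, and not in the fit of the 2 compared groups alone.

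The 3 B-type ephrins, transmembrane ligands that can also signal back into their own cell, parted. Efnb1 stood at 66.6 and 61.7 CPM in the controls, 96.4 and 111 at D4 and 135 and 121 at D7, higher in every injured library. Its adjusted p-values passed and its differences were under 2-fold (log2 fold change 0.69, SE 0.11, adjusted p = 0.00445 at D4, and log2 fold change 0.998, SE 0.11, adjusted p = 0.00161 at D7). At D7 it was called in the fit of the 2 compared groups alone, with upper-quartile or no TMM factors, and with both other low-count filters. DESeq2 did not call it. Efnb3 stood at 4.48 and 3.62 CPM in the controls, 0.328 and 0.702 at D4 and 0.986 and 1.24 at D7, and was downregulated 7.86-fold at D4 (log2 fold change -2.95, SE 0.43, adjusted p = 0.00298) and 3.64-fold at D7 (log2 fold change -1.86, SE 0.41, adjusted p = 0.0159). Its D7 call was lost without control a (-1.70, adjusted p = 0.0631) and without D7 a (-1.68, adjusted p = 0.0845). Efnb2, an arterial endothelial ephrin, stood at 49.8 and 94.2 CPM in the controls, 29.6 and 33.6 at D4 and 22.3 and 35.6 at D7, and was downregulated at D4 (log2 fold change -1.19, SE 0.34, adjusted p = 0.0335) and D7 (log2 fold change -1.31, SE 0.34, adjusted p = 0.0285). Of the ephrin-B sum in FPKM, Efnb1 made up 60.8% in control a, Efnb2 52.5% in control b, and Efnb1 between 80.6% and 88.1% after the crush.

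The Efnb2 call depended on single libraries. Its level in control b was 94.2 CPM against 49.8 in control a, and control b was also the library with the high smooth muscle sum (Acta2 at 149 FPKM in control a and 1095 in control b, Myh11 at 36.0 and 324). Without control b, the log2 fold change of Efnb2 was -0.66, adjusted p = 0.121 at D4 and -0.79, adjusted p = 0.0877 at D7. At D4 it was -1.10, adjusted p = 0.156 without D4 a and -1.28, adjusted p = 0.119 without D4 b. At D7 it was -0.98, adjusted p = 0.122 without D7 a, -1.31, adjusted p = 0.0586 without D4 a and -1.31, adjusted p = 0.0591 without D4 b. The endothelial genes given above also fell at D7, and their part in the Efnb2 values was not tested.

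Of the 6 A-type Eph receptors tested, 1 was a DEG at D4 (16.7%, beside 21.9% of all genes) and none at D7 (beside 18.8%). Epha3 passed the adjusted p on both days and was under 2-fold (log2 fold change -0.85, SE 0.17, adjusted p = 0.0103 at D4, log2 fold change -0.62, SE 0.17, adjusted p = 0.035 at D7). No other of the 6 had an unadjusted p under 0.05 in edgeR at D7, and DESeq2 called none. Epha4, a receptor that binds both ephrin classes, stood at 8.55 and 14.2 CPM in the controls, 25.6 and 36.0 at D4 and 15.7 and 21.0 at D7. It was upregulated 2.71-fold at D4 (log2 fold change 1.44, SE 0.30, adjusted p = 0.0107), with both D4 libraries above both controls, and did not pass at D7 (log2 fold change 0.70, SE 0.30, adjusted p = 0.116). Without D4 b its D4 value was 1.17, adjusted p = 0.066. Epha2, the A-type receptor with the highest control level, stood at 38.3 and 43.7 CPM in the controls, 22.9 and 24.5 at D4 and 39.7 and 32.5 at D7, and its D4 difference passed the adjusted p but was under 2-fold (log2 fold change -0.79, SE 0.14, adjusted p = 0.00556).

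Ephb6 had the largest fold change of the ephrin system, and 2 of 5 B-type receptors were DEGs on each day (40.0%, beside 21.9% of all genes at D4 and 18.8% at D7). Ephb6, a receptor whose kinase domain is inactive (chr4:70903253-70918514 on Rnor_6.0), stood at 122 and 106 CPM in the controls, 7.02 and 8.31 at D4 and 38.8 and 25.0 at D7. It was downregulated 14.9-fold at D4 (log2 fold change -3.89, SE 0.24, adjusted p = 0.000197) and 3.58-fold at D7 (log2 fold change -1.84, SE 0.22, adjusted p = 0.00195). The D7 libraries lay above both D4 libraries and below both controls. Ephb1 (chr8:110376954-110813000) stood at 21.7 and 18.6 CPM in the controls, 4.1 and 2.77 at D4 and 33.0 and 22.8 at D7. It was downregulated 5.86-fold at D4 (log2 fold change -2.55, SE 0.27, adjusted p = 0.000892), and at D7 both libraries were above both controls by an amount that did not pass (log2 fold change 0.47, SE 0.24, adjusted p = 0.179, 95% interval -0.13 to 1.07).

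Ephb3, unlike Ephb1 and Ephb6, was not downregulated on either day. It stood at 28.2 and 41.7 CPM in the controls, 54.3 and 65.5 at D4 and 127 and 93.6 at D7, and rose 3.16-fold at D7 (log2 fold change 1.66, SE 0.24, adjusted p = 0.00361), while its D4 difference passed the adjusted p and was under 2-fold (log2 fold change 0.78, SE 0.24, adjusted p = 0.039). Ephb4, a venous endothelial receptor for Efnb2, and Ephb2 were not DEGs. Ephb4 ranged from 91.8 to 141 CPM, with control b the highest, and Ephb2 from 35.9 to 61.9 CPM. Of the EphB sum, the largest share belonged to Ephb6 or Ephb4 in the controls (43.0% and 42.0%), to Ephb4 at D4 (53.5% and 49.3%) and to Ephb3 or Ephb4 at D7 (38.6% and 38.0%).

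Both Slits that were tested fell. Slit2 stood at 341 and 246 CPM in the controls, 117 and 131 at D4 and 186 and 161 at D7. It was downregulated 2.37-fold at D4 (log2 fold change -1.24, SE 0.18, adjusted p = 0.00255), and at D7 its difference was under 2-fold (log2 fold change -0.76, SE 0.17, adjusted p = 0.0181). Without control a the D4 value was -0.99, adjusted p = 0.00477. Slit3 stood at 251 and 447 CPM in the controls, 106 and 116 at D4 and 64.4 and 109 at D7, and was downregulated at D4 (log2 fold change -1.66, SE 0.34, adjusted p = 0.0104) and D7 (log2 fold change -2.01, SE 0.35, adjusted p = 0.00684). Control b was again the high library. Without it Slit3 kept its calls, while without D4 a the D4 value was -1.59, adjusted p = 0.0726 and without D4 b -1.72, adjusted p = 0.0626. The annotated span of Slit3 also contains a small 7SK gene.

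Among the Robo receptors, Robo3 fell and the other 3 were not DEGs. Robo3, known from the crossing of commissural axons, stood at 10.7 and 5.79 CPM in the controls, 0.78 and 0.702 at D4 and 0.563 and 0.346 at D7, a low level in all groups. It was downregulated 11.1-fold at D4 (log2 fold change -3.47, SE 0.42, adjusted p = 0.00142) and 18.1-fold at D7 (log2 fold change -4.16, SE 0.45, adjusted p = 0.00137), and no injured library reached either control. Robo4, an endothelial receptor and the highest of the 4 per unit of length, stood at 34.5 and 29.1 CPM in the controls, 31.1 and 32.6 at D4 and 14.3 and 20.1 at D7. Its D7 difference passed the adjusted p and was under 2-fold (log2 fold change -0.88, SE 0.19, adjusted p = 0.0136), beside the endothelial sums given above, whose part in it was not tested. Robo1 and Robo2, the main Slit receptors of axons, ranged from 10.5 to 16.0 CPM and from 11.4 to 14.7 CPM. Their 95% intervals at D4 were -0.34 to 0.41 and -0.32 to 0.37 on the log2 scale. At D7 they were 0.043 to 0.796 for Robo1, above 0 (log2 fold change 0.42, SE 0.15, adjusted p = 0.0779), and -0.09 to 0.60 for Robo2.

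The netrins split by member. Ntn3 stood at 1.96 and 1.63 CPM in the controls, 6.36 and 7.06 at D4 and 7.04 and 7.92 at D7, and was upregulated 3.74-fold at D4 (log2 fold change 1.90, SE 0.22, adjusted p = 0.00127) and 4.17-fold at D7 (log2 fold change 2.05, SE 0.22, adjusted p = 0.00135), with every injured library above both controls. Ntn5 had 0 counts in both controls and stood at 1.03 and 0.85 CPM at D4 and 0.329 and 0.742 CPM at D7. Set against 3 counts per control library, its D4 level was at least 5.59-fold higher (adjusted p = 0.00748) and its D7 level at least 3.19-fold higher (adjusted p = 0.0172). It passed the low-count filter through the injured groups alone, and its D7 call was lost without D7 b (adjusted p = 0.051).

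Ntn1, the classical secreted netrin, stood at 71.4 and 42.9 CPM in the controls, 51.9 and 53.6 at D4 and 21.6 and 31.1 at D7. It was downregulated at D7 (log2 fold change -1.12, SE 0.28, adjusted p = 0.023) and not at D4 (log2 fold change -0.12, SE 0.27, adjusted p = 0.75). This call was lost without control a (-0.70, adjusted p = 0.0636), without D7 a (-0.85, adjusted p = 0.109), without D4 a (-1.12, adjusted p = 0.0519) and without D4 b (-1.12, adjusted p = 0.0523). Ntng2, a membrane-anchored netrin that does not bind the classical netrin receptors, was the highest in the family per unit of length after the crush. Its level was 31.9 and 36.4 FPKM at D4 and 54.8 and 44.6 at D7. In CPM it stood at 109 and 92.2 in the controls, 98.1 and 112 at D4 and 169 and 136 at D7. It was not a DEG (log2 fold change 0.06, SE 0.15, adjusted p = 0.766 at D4, log2 fold change 0.60, SE 0.15, adjusted p = 0.0242 at D7).

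Of the netrin receptors, Dcc was all but absent, with at most 3 counts in a library, and Neo1 and Unc5c fell. Neo1, neogenin, stood at 147 and 155 CPM in the controls, 73.8 and 79.3 at D4 and 67.8 and 71.2 at D7. It was downregulated 2.18-fold at D7 (log2 fold change -1.12, SE 0.09, adjusted p = 0.000618) and was just under 2-fold at D4 (log2 fold change -0.98, SE 0.09, adjusted p = 0.000545), with all 4 injured libraries below both controls. With no TMM factor its D7 value was under 2-fold (-0.83, adjusted p = 0.00134). Unc5c, a repulsive netrin receptor, stood at 36.5 and 33.6 CPM in the controls, 12.0 and 18.0 at D4 and 18.9 and 18.2 at D7. It was downregulated at D4 (log2 fold change -1.22, SE 0.20, adjusted p = 0.00424) and its D7 difference was under 2-fold (log2 fold change -0.92, SE 0.20, adjusted p = 0.0144). Without D4 a the D4 value was -0.96, adjusted p = 0.0144. Unc5b ranged from 24.8 to 37.4 CPM and was not a DEG.

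The largest change in level among the guidance genes was that of Sema5a, a transmembrane semaphorin with thrombospondin repeats (chr2:85377318-85808970). It stood at 2990.5 and 2451 CPM in the controls, 142 and 159 at D4 and 276 and 214 at D7. The fall was 18.1-fold at D4 (log2 fold change -4.18, SE 0.19, adjusted p = 0.00012) and 11.1-fold at D7 (log2 fold change -3.47, SE 0.18, adjusted p = 0.000284), and the controls were far above every injured library. From D4 to D7 the difference did not pass (log2 fold change 0.70, SE 0.17, adjusted p = 0.0742). In FPKM, Sema5a made up 54.5% and 53.2% of the summed class 4 to 7 semaphorins in the controls, 7.71% and 7.74% at D4 and 12.3% and 11.0% at D7. The sum was 419 and 361 FPKM in the controls, 174 and 194 at D4 and 212 and 185 at D7.

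Class 4 semaphorins moved in both directions. Sema4g (chr1:264741911-264753397) stood at 193 and 157 CPM in the controls, 6.28 and 8.72 at D4 and 37.4 and 24.7 at D7, and was downregulated 23.3-fold at D4 (log2 fold change -4.54, SE 0.28, adjusted p = 0.000188) and 5.63-fold at D7 (log2 fold change -2.49, SE 0.25, adjusted p = 0.0011). Sema4a, an immune semaphorin found on myeloid and dendritic cells, stood at 6.49 and 6.69 CPM in the controls, 21.1 and 23.2 at D4 and 16.1 and 19.4 at D7, and was upregulated at D4 (log2 fold change 1.75, SE 0.15, adjusted p = 0.000453) and D7 (log2 fold change 1.43, SE 0.15, adjusted p = 0.00126). Sema4d, a ligand of Plxnb1 and of CD72 on lymphocytes, stood at 8.45 and 11.5 CPM in the controls, 23.6 and 28.7 at D4 and 16.3 and 19.8 at D7. It was upregulated 2.63-fold at D4 (log2 fold change 1.40, SE 0.20, adjusted p = 0.00285) and its D7 difference was under 2-fold (log2 fold change 0.86, SE 0.20, adjusted p = 0.0202). For both Sema4a and Sema4d no injured library overlapped the controls, and the macrophage sums given above moved the same way, with a part that was not tested. Sema4c, a Plxnb2 ligand and the highest of class 4, ranged from 39.8 to 56.5 FPKM and was not a DEG. Sema4f stood at 12.4 and 5.12 CPM in the controls, 32.4 and 16.4 at D4 and 18.3 and 13.6 at D7. Its D4 rise fell just short of the adjusted p (log2 fold change 1.47, SE 0.48, adjusted p = 0.0509). It was called at D4 with DESeq2 and with upper-quartile factors, and not in the fit of the 2 compared groups alone.

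In class 6, which signals through A plexins, Sema6c and Sema6d fell and Sema6a and Sema6b were not DEGs. Sema6c stood at 102 and 71.7 CPM in the controls, 17.3 and 18.9 at D4 and 27.0 and 18.1 at D7, and was downregulated at D4 (log2 fold change -2.26, SE 0.25, adjusted p = 0.001) and D7 (log2 fold change -1.95, SE 0.24, adjusted p = 0.00227). Sema6d stood at 244 and 230.3 CPM in the controls, 65.8 and 72.5 at D4 and 139.8 and 115 at D7. It was downregulated 3.43-fold at D4 (log2 fold change -1.78, SE 0.12, adjusted p = 0.000246), with a D7 value under 2-fold (log2 fold change -0.90, SE 0.12, adjusted p = 0.00299). Sema7a, a GPI-anchored semaphorin that binds Plxnc1 and beta-1 integrin, stood at 76.8 and 72.0 CPM in the controls, 111 and 133 at D4 and 148 and 127 at D7. All injured libraries lay above both controls, with differences that passed the adjusted p and were under 2-fold (log2 fold change 0.72, SE 0.13, adjusted p = 0.00669 at D4, log2 fold change 0.88, SE 0.13, adjusted p = 0.00402 at D7). Its share of the semaphorin sum was 6.04% and 6.73% in the controls and between 25.9% and 28.4% after the crush.

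**Figure D2:**
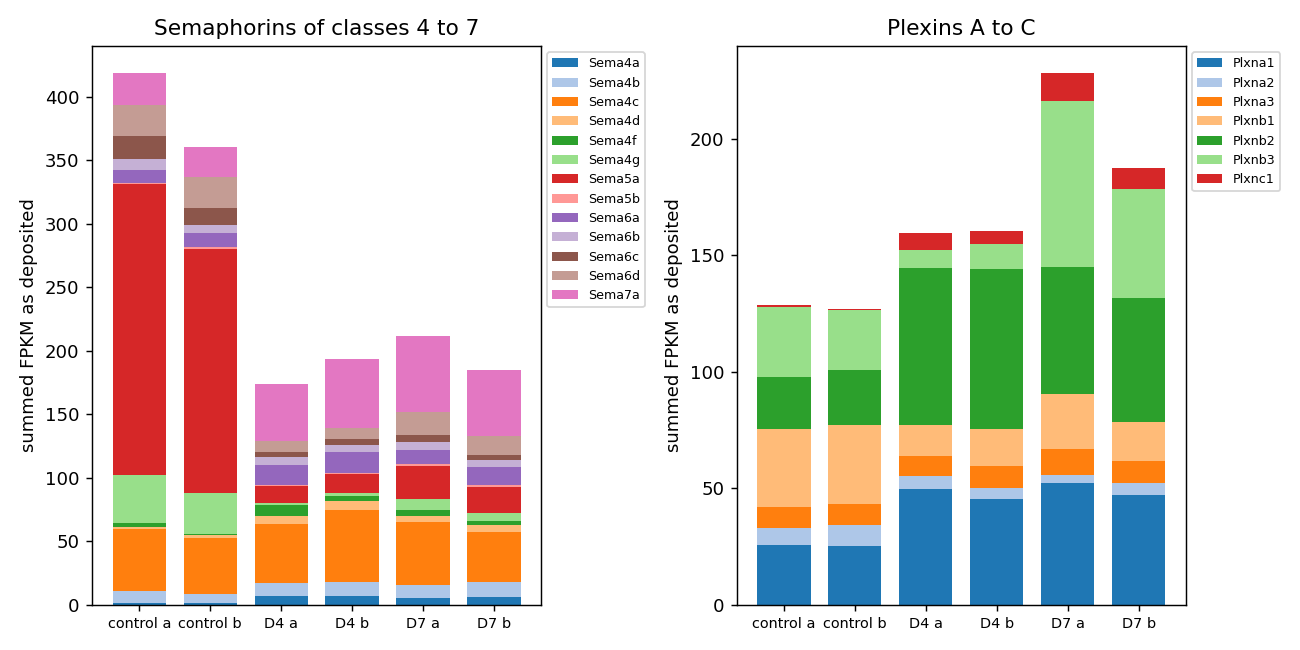
Summed FPKM in each of the 6 libraries, stacked by gene, for the class 4 to 7 semaphorins (left) and the A to C plexins (right). Sema5a fills 54.5% and 53.2% of the semaphorin bars of the controls and at most 12.3% afterwards. The plexin bars reach 128 and 127 FPKM in the controls, 159 and 160.1 at D4 and 228 and 187 at D7. These FPKM carry no TMM factor, and the heights were not tested between groups.

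Among the plexins, the receptors of these semaphorins, 4 of 7 were DEGs at D4 (57.1%, beside 21.9% of all genes) and 3 of 7 at D7 (42.9%, beside 18.8%). Plxnc1, the receptor of Sema7a, stood at 4.22 and 2.83 CPM in the controls, 32.1 and 23.9 at D4 and 53.9 and 38.4 at D7. It was upregulated 7.95-fold at D4 (log2 fold change 2.98, SE 0.28, adjusted p = 0.000623) and 13.1-fold at D7 (log2 fold change 3.70, SE 0.29, adjusted p = 0.000582), and all 4 injured libraries were above both controls. Plxnb2, a receptor of Sema4c, stood at 191 and 199 CPM in the controls, 466 and 473 at D4 and 377 and 364 at D7, and was upregulated at D4 (log2 fold change 1.27, SE 0.09, adjusted p = 0.000242), with a D7 value under 2-fold (log2 fold change 0.93, SE 0.09, adjusted p = 0.000906). Both plexins are known in macrophages, whose marker sums rose as well, and that part was not tested. Plxna1 was higher in every injured library (262 and 252 CPM in the controls, 413 and 378 at D4 and 436 and 386 at D7) by less than 2-fold (log2 fold change 0.62, SE 0.11, adjusted p = 0.00524 at D4).

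Plxnb1 and Plxna2 fell. Plxnb1, a receptor of Sema4d, stood at 259.9 and 256 CPM in the controls, 83.0 and 99.8 at D4 and 149 and 103 at D7, and was downregulated at D4 (log2 fold change -1.50, SE 0.19, adjusted p = 0.00171) and D7 (log2 fold change -1.03, SE 0.19, adjusted p = 0.00821). Its D7 value lay close to 2-fold and fell short of it without D7 b (-0.79, adjusted p = 0.0159), with no TMM factor (-0.74, adjusted p = 0.0187), with upper-quartile factors (-0.97, adjusted p = 0.0105) and among genes with at least 10 counts in every library (-0.998, adjusted p = 0.00825). Plxna2, a receptor of class 6 semaphorins, stood at 97.5 and 112 CPM in the controls, 57.6 and 47.5 at D4 and 34.9 and 54.4 at D7, and was downregulated at D7 (log2 fold change -1.23, SE 0.22, adjusted p = 0.00842), with a D4 value just short of 2-fold (log2 fold change -0.995, SE 0.22, adjusted p = 0.014). Without D7 a its D7 value was -0.92, adjusted p = 0.0203. Plxnb3, a receptor of Sema5a, was the plexin that passed from D4 to D7 (chrX:157015305-157028434). It stood at 206 and 173 CPM in the controls, 44.0 and 60.4 at D4 and 399 and 259 at D7, which is a fall of 3.63-fold at D4 (log2 fold change -1.86, SE 0.25, adjusted p = 0.00226) and a D7 value above both controls by less than 2-fold (log2 fold change 0.80, SE 0.25, adjusted p = 0.0475).

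**Figure D3:**
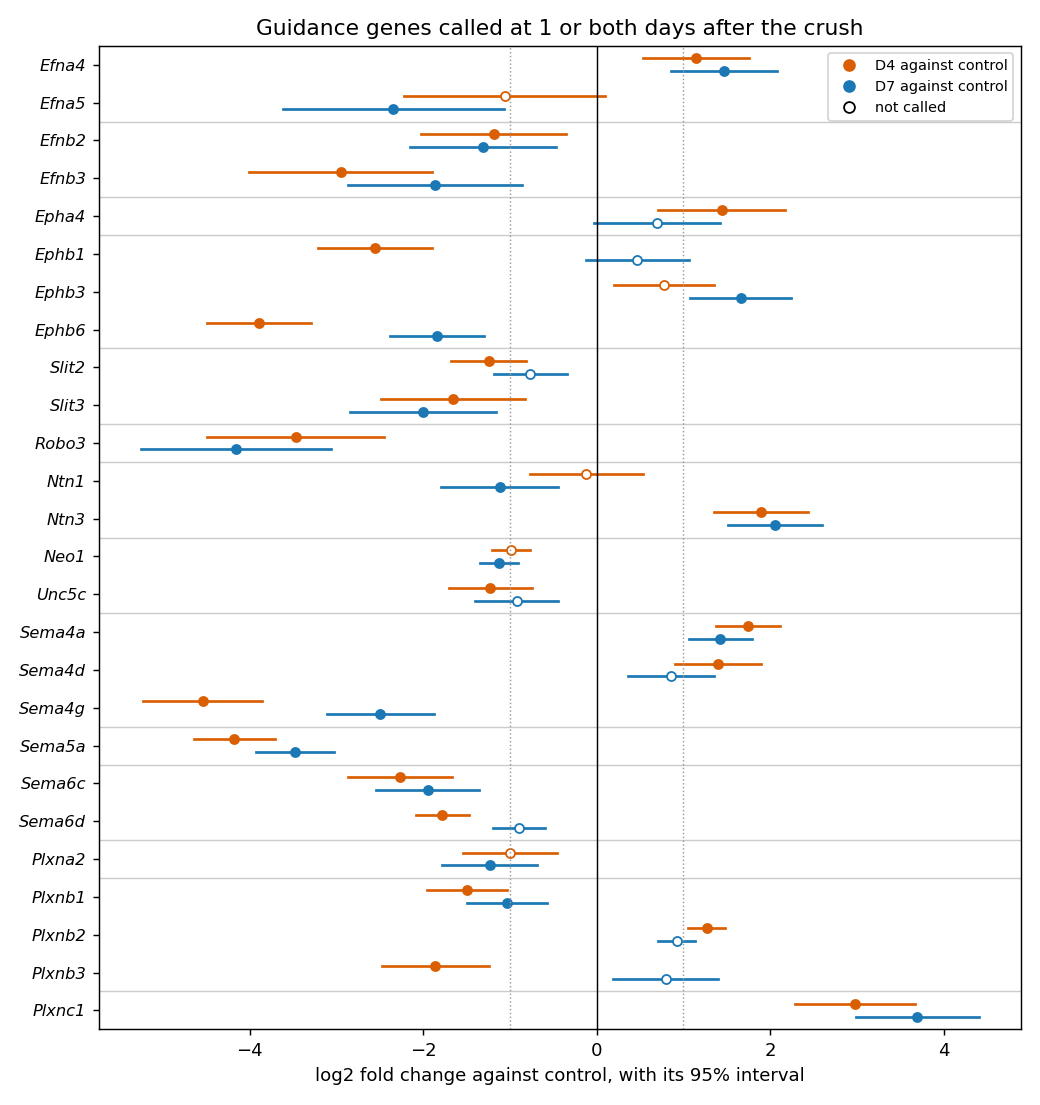
Log2 fold change against control at D4 and D7 with its 95% interval, for the guidance genes that were DEGs on 1 or both days and had counts in the controls, with dotted lines at a 2-fold difference and open circles where the gene was not a DEG. Sema4g, Sema5a and Ephb6 lie farthest to the left at D4, at -4.54, -4.18 and -3.89, and Plxnc1 farthest to the right at D7, at 3.70.

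By day, 5 genes were upregulated on both days (Efna4, Ntn3, Ntn5, Sema4a and Plxnc1) and 9 were downregulated on both (Efnb2, Efnb3, Ephb6, Slit3, Robo3, Sema4g, Sema5a, Sema6c and Plxnb1). Of the 5, Ntn5 could be tested only because it was present in the injured groups. Epha4, Sema4d and Plxnb2 passed as upregulated at D4 alone, and Ephb1, Slit2, Unc5c, Sema6d and Plxnb3 as downregulated at D4 alone. Ephb3 passed as upregulated, and Efna5, Ntn1, Neo1 and Plxna2 as downregulated, at D7 alone. How many of all genes tested showed each pattern was not counted, and both comparisons share the controls. These counts are therefore a listing only. Passing on 1 day alone does not show a difference between the days, which was tested directly in D4 vs D7.

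That test called 4 genes, all higher at D7. Ephb1 rose 8.12-fold (log2 fold change 3.02, SE 0.27, adjusted p = 0.0117), Plxnb3 6.3-fold (log2 fold change 2.65, SE 0.26, adjusted p = 0.0121), Ephb6 4.16-fold (log2 fold change 2.05, SE 0.23, adjusted p = 0.0152) and Sema4g 4.14-fold (log2 fold change 2.05, SE 0.26, adjusted p = 0.0205). For each of them both D7 libraries lay above both D4 libraries, and D7 a was above D7 b. Sema6d had the same order with a difference under 2-fold (log2 fold change 0.88, SE 0.12, adjusted p = 0.0247). The sum of the myelin genes given above also rose from D4 to D7. At D7 that sum was below both controls, as were Ephb6, Sema4g and Sema6d, while Ephb1 and Plxnb3 lay above both controls. The part of myelinating cells in these values was not tested. Without D4 a or without D4 b no guidance gene was called by edgeR (14 and 16 of 53 had an unadjusted p under 0.05), nor was any of the other genes tested. Ephb1 then had a log2 fold change of 3.33, adjusted p = 0.138 and of 2.76, adjusted p = 0.112, Plxnb3 of 2.44, adjusted p = 0.154 and 2.90, adjusted p = 0.112, Ephb6 of 1.94, adjusted p = 0.17 and 2.18, adjusted p = 0.124, and Sema4g of 1.83, adjusted p = 0.181 and 2.31, adjusted p = 0.118. Sema4g was also lost without D7 a (1.71, adjusted p = 0.0609).

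**Figure D4:**
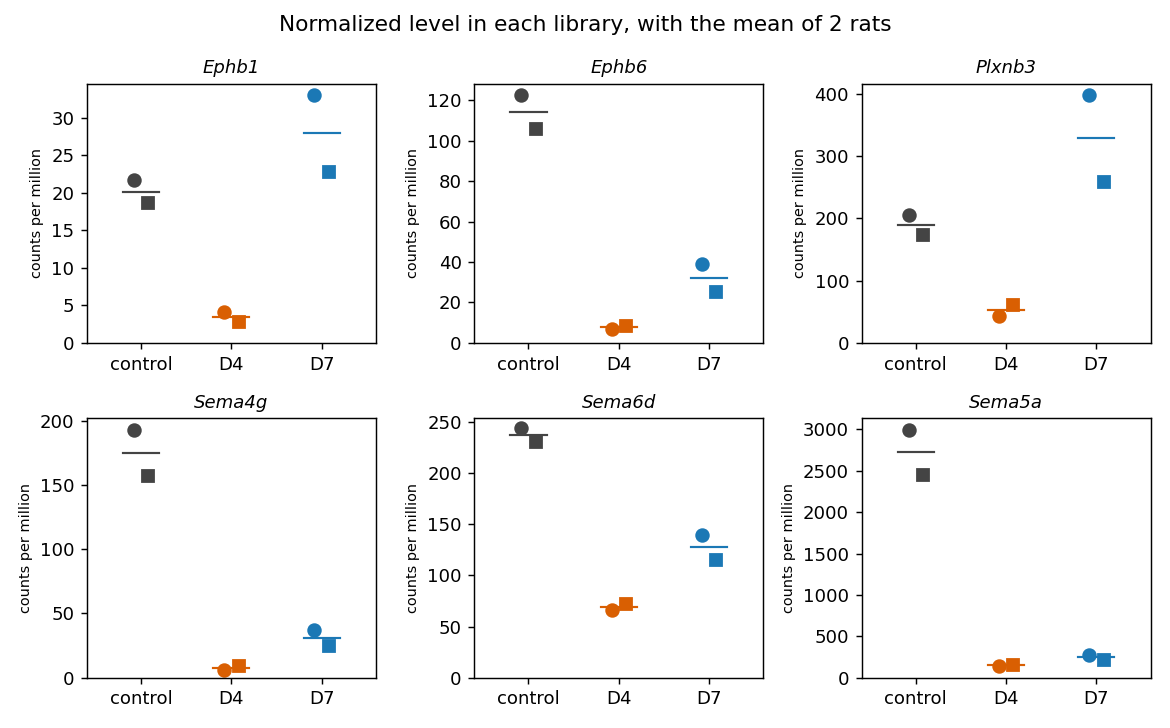
CPM of 6 guidance genes in each library, with circles for library a, squares for library b and a bar at the mean of the 2 rats. Ephb1 and Plxnb3 are back above both controls at D7, Ephb6, Sema4g and Sema6d lie between D4 and control, and Sema5a stays at 276 and 214 against 2990.5 and 2451 in the controls.

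Further genes of the same pathways, in 2 lists, were read beside these families. Of 21 co-receptors and extracellular modulators, 19 were tested, with 4 upregulated and 0 downregulated at D4, 4 upregulated and 2 downregulated at D7, and 2 downregulated from D4 to D7. The shares called were 21.1%, 31.6% and 10.5%, beside 21.9%, 18.8% and 2.18% of all genes, so that of D4 was at the background. The median log2 fold changes were 0.21, 0.28 and -0.10. The 4 that rose on both days were Draxin, Flrt3, Gpc1 and Met. Draxin, a secreted netrin antagonist, had 0 counts in both controls, and against 3 counts per control library its level was at least 24.3-fold higher on D4 and 11.2-fold higher on D7. It passed the low-count filter through the injured groups alone, and without it 3 of the list rose on both days. Gpc1, a heparan sulfate proteoglycan that binds Slits, stood at 156 and 105 CPM in the controls, 1335 and 1539 at D4 and 586 and 670.2 at D7 (log2 fold change 3.46, SE 0.22, adjusted p = 0.000209 at D4). Flrt3, a ligand of Unc5 receptors, stood at 26.9 and 33.5 CPM in the controls, 224 and 248 at D4 and 210.2 and 231 at D7 (log2 fold change 2.97, SE 0.14, adjusted p = 0.000124 at D4). Met, the hepatocyte growth factor receptor and a partner of B plexins, stood at 24.1 and 31.8 CPM in the controls, 138 and 141 at D4 and 55.6 and 75.3 at D7. Gpc1 and Met fell from D4 to D7 (log2 fold change -1.19, adjusted p = 0.0372 and -1.09, adjusted p = 0.0372). These 2 falls did not pass the adjusted p without D4 a (-1.29, adjusted p = 0.202 for Gpc1 and -1.11, adjusted p = 0.224 for Met), without D4 b (-1.09, adjusted p = 0.223 and -1.08, adjusted p = 0.216) and without D7 a (-1.11, adjusted p = 0.179 and -0.90, adjusted p = 0.149), and that of Gpc1 also without D7 b (-1.30, adjusted p = 0.0663). Their size stayed near 2-fold or above in each case. The D7 rise of Met was just under 2-fold without D7 b (0.995, adjusted p = 0.014). Flrt2, another Unc5 ligand, was the strongest fall at D7 (log2 fold change -1.28, SE 0.25, adjusted p = 0.0108) and Itga1, an integrin subunit, the other (log2 fold change -1.003, SE 0.30, adjusted p = 0.0438). Without D7 a, Flrt2 was at -0.91 (adjusted p = 0.0159). Itga1, at 115 and 217 CPM in the controls, 95.2 and 91.2 at D4 and 70.3 and 95.5 at D7, passed without control a alone, and without control b it was at -0.48 (adjusted p = 0.117), with adjusted p-values of 0.0605 to 0.187 without each of the others. The neuropilins Nrp1 and Nrp2 were not DEGs.

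Of 33 intracellular effectors, 31 were tested, of which 3 rose and 5 fell at D4, and 3 rose and 4 fell at D7, with median log2 fold changes of -0.20 and -0.12. The shares called were 25.8% and 22.6%, near the 21.9% and 18.8% of all genes. Crmp1, a collapsin response mediator of semaphorin signalling, was the strongest rise on both days, at 4.07 and 1.99 CPM in the controls, 29.6 and 35.6 at D4 and 21.5 and 21.2 at D7 (log2 fold change 3.41, SE 0.31, adjusted p = 0.000507 at D4, log2 fold change 2.80, SE 0.30, adjusted p = 0.00138 at D7). Chn1, a Rac GTPase-activating protein downstream of Epha4, was the strongest fall at D4, at 78.1 and 77.4 CPM in the controls, 21.7 and 20.5 at D4 and 18.5 and 18.5 at D7 (log2 fold change -1.88, SE 0.09, adjusted p = 0.000124). Ablim1, an actin-binding protein linked to netrin signalling, was the strongest fall at D7, at 128 and 119 CPM in the controls, 41.2 and 30.3 at D4 and 18.4 and 34.7 at D7 (log2 fold change -2.22, SE 0.31, adjusted p = 0.00334). Pak1, a Rac-dependent kinase, was upregulated and Farp2, a Rac exchange factor bound by A plexins, and Chn2 were downregulated on both days. From D4 to D7 no effector met both thresholds in edgeR or in DESeq2, and 6 of 31 had an unadjusted p under 0.05 in edgeR. Mical1 passed the adjusted p in edgeR and was under 2-fold (log2 fold change 0.87, SE 0.16, adjusted p = 0.0431).

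Long noncoding RNAs (lncRNAs) lay across many of these loci. In the lncRNA table, 74 transcripts overlapped the spans of 35 guidance genes on Rnor_6.0, and 42 of them passed the filter. At D4, 2 were upregulated and 3 downregulated (beside 10.1% of all 14077 lncRNAs tested, 5.19% upregulated and 4.87% downregulated), and at D7, 1 was upregulated and 5 were downregulated (beside 5.79%, 3.0% upregulated and 2.79% downregulated). Of these calls, 4 of 5 at D4 and 5 of 6 at D7 went the same way as a call of the overlapped gene. From D4 to D7 none of the 42 passed in edgeR (beside 0.249%), with 11 at an unadjusted p under 0.05. How strand was used in counting is not given in the sources used here, so fragments of a gene and of a lncRNA that overlaps it cannot be told apart.

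The transcript within Sema4g, NONRATT001767.2, followed its host, with 995 and 744 counts in the controls, 40 and 45 at D4 and 215 and 129 at D7. NONRATT002893.2 within Plxnb3 likewise had 85 and 80 counts in the controls, 23 and 40 at D4 and 142 and 100 at D7. The transcript within Plxna1, NONRATT021611.2 (chr4:121217658-121219999), did not. It had 3 and 22 counts in the controls, 1945 and 1878 at D4 and 3 and 12 at D7, a log2 fold change of 7.05 at D4 (SE 1.07, adjusted p = 0.0176), while Plxna1 itself differed by less than 2-fold. From D4 to D7 its log2 fold change was -7.90 (SE 1.12, adjusted p = 0.0946), which did not pass.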

How the data were processed

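Sciatic nerve RNA of 6 rats was studied (control, D4 and D7, 2 each). Per the study's methods and the submitters' processing notes, ribosomal reads were removed, paired-end reads mapped with HISAT2 2.0.4 to Rnor_6.0, and transcripts assembled and fragments counted with StringTie 1.3.0. The authors deposited raw fragment counts and FPKM per gene, and raw counts per lncRNA. The deposited FPKM followed each library's total count with no TMM factor. The mRNA counts summed to 18727255 to 25350886 per library, and replicate log2 CPM correlated at 0.973 to 0.987.

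Counts were filtered (filterByExpr), scaled by TMM and tested with edgeR 4.0.16 (R 4.3.3; quasi-likelihood, 1 fit of 6 libraries, Benjamini-Hochberg adjustment over all genes tested), with thresholds of adjusted p 0.05 and 2-fold. SE was the absolute log2 fold change over the square root of F. Per the methods, the 2 libraries of a group are separate rats, and p-values rest on a spread shared across genes. FPKM served for levels between genes. Groups with 3 counts or fewer in every library gave a lower bound of the fold. lncRNAs were fitted separately.

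The members and lists were chosen with earlier results of these data known. Values per library are given for members called in any comparison; of the others, the highest of a family in the controls serves as example, and of each list the strongest rise and fall. Further genes were named after their values were seen, such as Efna2, Efnb1, Sema4f, Sema7a, Met and the lncRNAs. Alternatives were DESeq2 1.42.0, other scalings, filters, thresholds and fits, and leaving out each library. In simulated data, 2-fold changes were called for 38 and 30 of 100 genes at D4 and D7 and 4-fold changes for 95 and 94 of 100, with 10 and 16 false calls among 14922 and 14937 genes. The changed genes were drawn from those with higher counts, so these rates do not cover genes of low count. Promoters came from RefSeq (GRCr8). All 6 libraries were used. 1 planned myelin marker and 1 planned lymphocyte marker are not reported here.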

Additional observations from a re-analysis of the deposited data

Results flagged for a closer look

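In the direct test of D7 against D4, 4 guidance genes differed between the injured groups. The log2 fold changes were 3.02 for Ephb1, 2.65 for Plxnb3, 2.05 for Ephb6 and 2.05 for Sema4g, with adjusted p-values of 0.0117, 0.0121, 0.0152 and 0.0205 in edgeR's quasi-likelihood test, and both D7 libraries of each gene were above both D4 libraries. Against control, the log2 fold change of Ephb1 went from -2.55 to 0.47 and that of Plxnb3 from -1.86 to 0.80, so their differences from control changed sign between the days. Neither D7 value met both thresholds. With 2 libraries a group, no library could be tested for standing apart.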

How the results depend on the processing

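Of the 45 DEG calls of guidance genes over the 3 comparisons, 23 held under every alternative in which the gene was tested. Genes that an alternative did not test were not counted as lost. The filter of at least 10 counts in every library left out Efnb3, Ntn5 and Robo3 on both days and Efna5 at D7. The fit of the 2 compared groups alone left out Ntn5 at D7. Counted in the same way, 27 held under every alternative but the test of the 2-fold change itself, and none reversed. That test left 8 guidance genes at D7 and 1 between days, 3 effectors at D4 and 4 at D7, and 3 modulators at D7 and 0 between days. With no fold threshold there were 32 guidance genes at D7, 8 modulators at D4, 18 effectors at D4 and 14 at D7, and 1 effector between days. Leaving out each library in turn gave 19 to 25 guidance genes at D4, 16 to 21 at D7 and 0 to 6 between days, 0 to 2 modulators between days and 0 to 2 effectors. With the letter as a replicate block there were 23 guidance genes at D4, 20 at D7 and 4 between days, and 1 modulator between days instead of 2. The deviations of libraries with the same letter correlated at 0.01 (control and D4), 0.19 (control and D7) and -0.13 (D4 and D7), so nothing in the data or the labels pairs the rats by letter. A block with the D4 letters exchanged, added after that was seen, gave 23, 19 and 4 guidance genes. Levels as CPM per kilobase were not run, as no mRNA length is used here. With 2 rats a group, 59 and 52 of 100 simulated 2-fold changes passed the adjusted p alone at D4 and D7. Fewer met both thresholds, as a true 2-fold change lies on the fold threshold itself.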
